A study of Felis catus with 8 samples.

Results

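Expression of 34 interferon-stimulated genes was compared in the livers of male cats raised on 4 diets. The genes were taken by name: every probe set of the array that the platform annotation assigns to exactly 1 gene, that gene being one of the 34, was included, which gave 384 of the 224320 probe sets with 1 gene. The rule reads names and no measured value, but the 34 genes were chosen with earlier results of these data known. Of these, 162 probe sets lay above the intensity filter, each of the 34 genes kept at least 1, and their average gave the value of a gene, among 17910 genes tested in all.

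Type I and type II interferons bind cell surface receptors and act through JAK kinases and STAT transcription factors. Type I interferon drives a complex that contains STAT2 and IRF9 and switches on genes carrying an interferon-stimulated response element. The products of these genes sense viral RNA (DDX58, IFIH1, DHX58), degrade RNA or block its translation (the OAS and IFIT families, ISG20), trap viral particles or their nucleocapsids (MX1, MX2), or attach the ubiquitin-like protein ISG15 to other proteins. In liver they are known mainly from viral hepatitis and from interferon treatment, and hepatocytes as well as Kupffer cells express them.

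The study used 8 arrays, 2 for each diet, hybridised with RNA from snap-frozen liver of male Felis catus aged 9 months. The control diet was a standard feline chow. The MSG diet was this chow with 1.125% monosodium glutamate, the trans-fat/HFCS diet had 8.6% trans fat with 24% HFCS (high-fructose corn syrup), and the combined diet had all 3 additions at the same levels. Dams of every group ate their diet from 3 weeks before mating through gestation and nursing, and their sons were weaned onto it, so that the contrasts join exposure before birth, during nursing and after weaning. Trans fat and HFCS were only ever given together and cannot be told apart. Each array carries its own cat number in the labels, which also speak of 4 to 5 livers per diet used for RNA, against 2 arrays here. Neither litters nor pooling of RNA are given, so it is not known whether an array stands for 1 liver, and the p-values below measure the spread between arrays of a diet.

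Arrays of the same diet correlated over all genes tested at r between 0.946 and 0.968, and arrays of different diets between 0.917 and 0.956. The hepatocyte markers were strongly expressed on every array: 16 of 17 were measured, their mean log2 intensity was between 7.87 and 8.01, and none differed among the diets by limma (adjusted p under 0.05). Both trans-fat/HFCS arrays stood apart in 12 skeletal muscle genes, whose summed intensity was 792 and 805 there and between 192 and 213 on the other 6 arrays. The muscle list was written after these genes had been seen to be high, and the part of muscle RNA in the results below was not tested. Results for the members are therefore also given without those 2 arrays where this ended a call or turned a direction. In whole liver, fewer cells of a type and less RNA per cell cannot be told apart.

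The gene values of the members were mostly low, and most of them average kept probe sets of unlike brightness. Single probe sets could be bright, with mean log2 intensities of up to 10.60 in STAT2 and 10.46 in DDX58. Of their probe sets, 42.2% passed the filter (a mean log2 intensity above 2.43, the median of all probe sets), against 49.8% of all probe sets with 1 gene. The median member had a log2 intensity of 3.84, close to the 3.96 of all genes tested. DDX58 and IRF9 (both 6.20), IFI44 (5.64), STAT2 (5.32) and OAS1 (5.27) were the 5 members above a log2 intensity of 5, while 23 lay under 4. IFIT1 and IFIT3 rested on 1 kept probe set each, and a further 14 members on 2 or 3. The probes match human transcripts, so the order of members by intensity also carries how well each cat transcript matches them and is not an order of abundance. In the RefSeq cat annotation (assembly F.catus_Fca126_mat1.0), 30 of the 34 symbols occur as gene names; MX2, IFIT1, XAF1 and SAMD9 were not matched there by symbol.

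**Figure D1:**
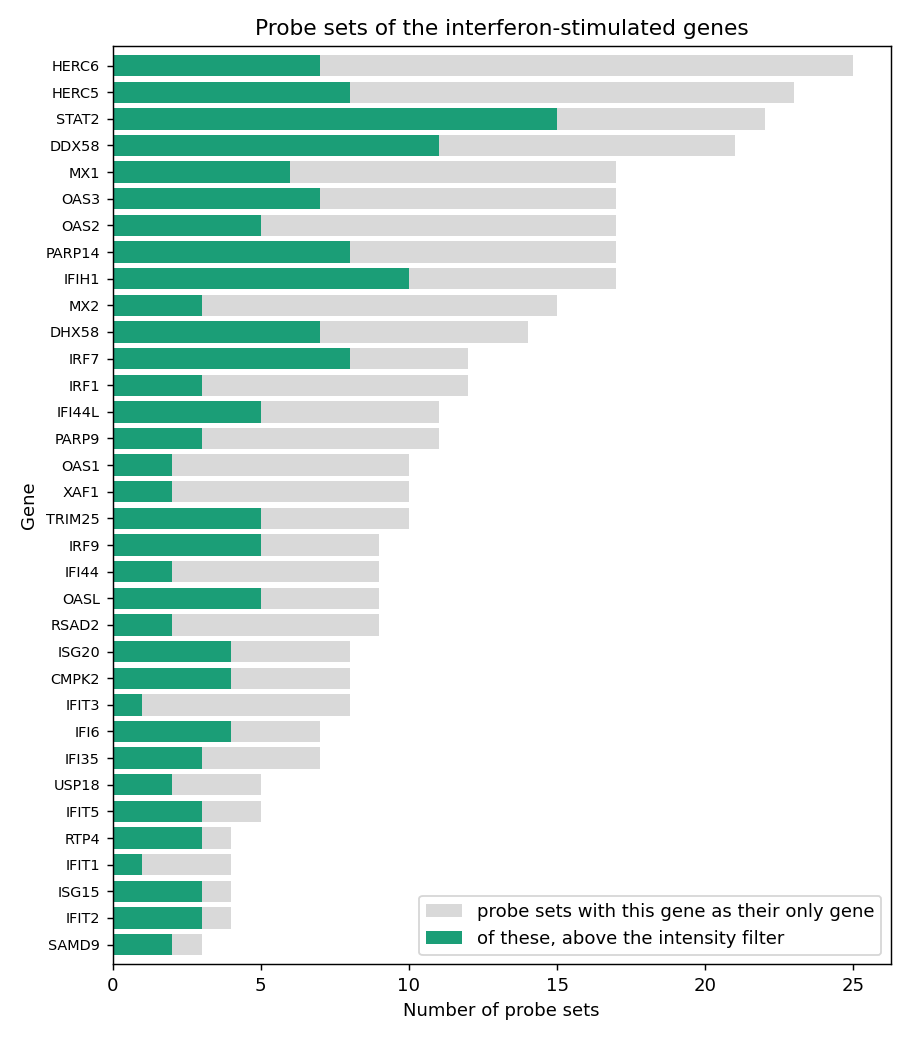
Number of probe sets of each of the 34 interferon-stimulated genes (bars, horizontal axis) that name it as their only gene, and within each bar the number above the intensity filter. STAT2 kept 15 probe sets, while IFIT1 and IFIT3 kept 1 each.

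Over the 4 diets, 2 of the 34 members differed: ISG20 (adjusted p = 0.0291) and IFIT3 (adjusted p = 0.0411, both by limma's F test). Across all genes 573, or 3.2%, were called. A further 5 members had an unadjusted p under 0.05, making 7 (20.6%) against 19.7% of all genes, so the members differed among the diets about as often as other genes did. The summed intensity of the 34 members was 629 and 657 on the control arrays, 767 and 771 on the MSG arrays, 640 and 752 on the trans-fat/HFCS arrays and 638 and 636 on the combined arrays. Both MSG arrays were above all others on this sum, and the trans-fat/HFCS pair was spread over most of the range. The sum weighs bright members most. With each member's log2 intensity taken minus its mean over the arrays, the median member was at 0.079 and 0.088 on the MSG arrays. The second trans-fat/HFCS array was at 0.09, so the MSG arrays were not above all others by this median. By the mean of the same values the MSG arrays were highest, at 0.096 and 0.131 against 0.09 on that array.

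**Figure D2:**
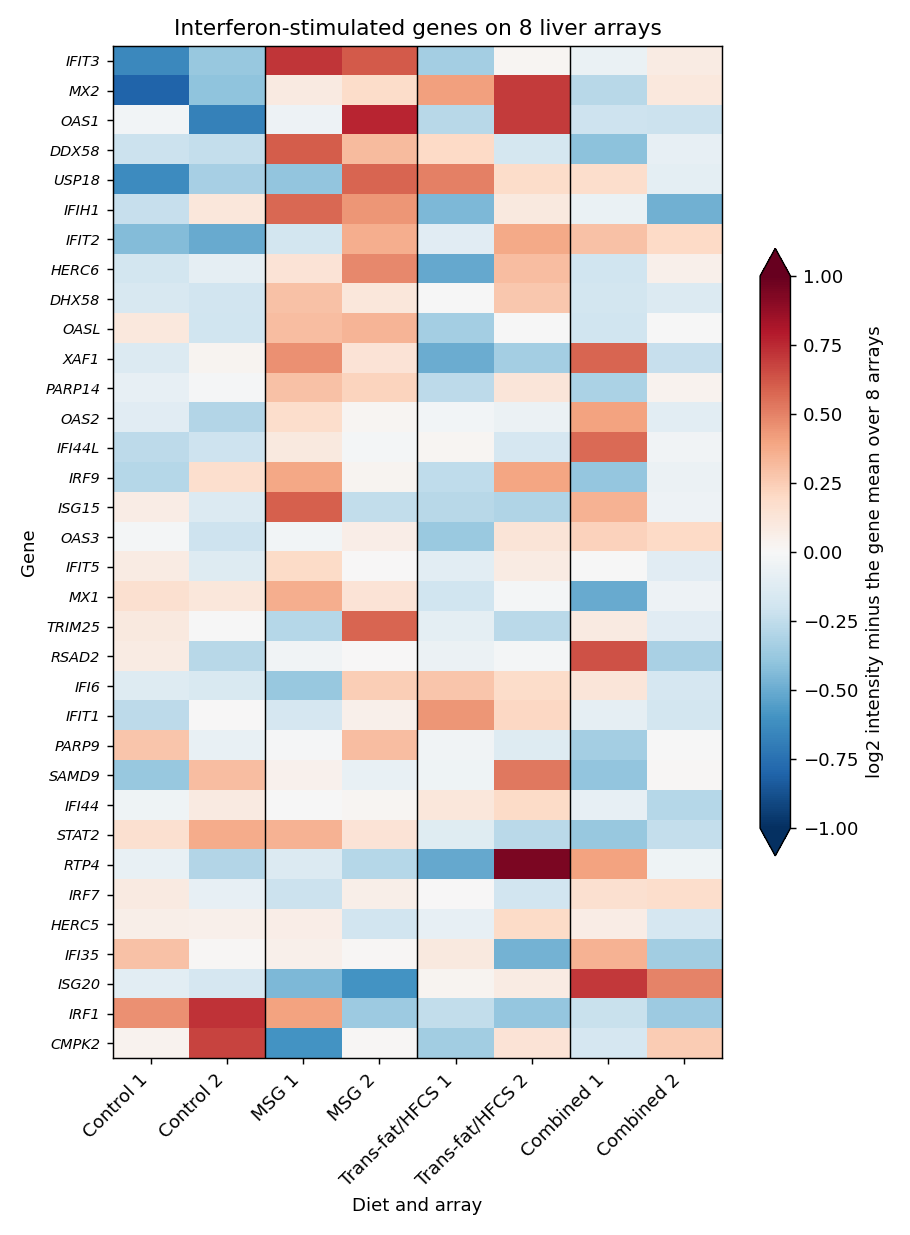
Each row is one of the 34 genes and each column one of the 8 arrays (TF/HFCS stands for the trans-fat/HFCS diet); colour gives the log2 intensity minus the mean of that gene over the 8 arrays. No column is high or low throughout: ISG20 is highest in the combined diet, IFIT3 in the MSG diet and MX2 in the trans-fat/HFCS diet.

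ISG20 encodes an exonuclease that degrades single-stranded RNA. Its log2 intensity was 3.19 and 3.13 on the control arrays, 2.84 and 2.70 on MSG, 3.32 and 3.38 on trans-fat/HFCS, and 4.01 and 3.79 on the combined diet. No pair of diets overlapped: the combined arrays were highest, then trans-fat/HFCS, then control, with MSG lowest. ISG20 was higher on the diets with trans fat and HFCS than on those without by 0.66 (SE 0.12), which is 1.58-fold (adjusted p = 0.0136, limma). The combined diet exceeded control by 0.74 (SE 0.16, adjusted p = 0.075). Added MSG went with a difference of -0.39 on chow (SE 0.16) and of 0.55 on the trans-fat/HFCS base (SE 0.16), and the interaction did not pass the test (0.94, SE 0.23, adjusted p = 0.282). ISG20 was the one member called for the trans-fat/HFCS main effect also without both trans-fat/HFCS arrays, where this contrast is the combined diet against MSG (adjusted p = 0.0264). Its F-test call ended when any 1 array was left out (adjusted p 0.0506 to 0.11), and the main-effect call ended without either control array (adjusted p up to 0.0589). Of its 4 kept probe sets, 3 were higher with trans fat and HFCS (by 1.18, 0.99 and 0.60) and 1 was lower by a log2 difference of -0.14.

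The IFIT proteins bind viral RNA and restrain its translation. IFIT3 had log2 intensities of 2.31 and 2.58 on control, 3.68 and 3.57 on MSG, 2.62 and 2.98 on trans-fat/HFCS and 2.89 and 3.04 on the combined diet. The MSG arrays were clear of all 6 others, and the control arrays were the lowest. The MSG diet lay above control by 1.18 (SE 0.19), or 2.26-fold, the largest difference of any member in that comparison, with an adjusted p of 0.0518 by limma. On the trans-fat/HFCS base the corresponding difference was 0.17, and the interaction of -1.01 (SE 0.27) had an adjusted p of 0.318. IFIT3 was measured by a single kept probe set, and the F-test call ended when any 1 array was left out (adjusted p 0.0528 to 0.182) and when its dimmer probe sets entered the average (adjusted p = 0.671).

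IFIT2, its neighbour in the cat genome annotation, gave 2.86 and 2.79 on control, 3.11 and 3.65 on MSG, 3.18 and 3.67 on trans-fat/HFCS, and 3.59 and 3.49 on the combined diet. All 6 arrays of the modified diets were above both control arrays. The differences from control were 0.56, 0.60 and 0.71 (SE 0.23 each), and the largest, on the combined diet, had an adjusted p of 0.178. With trans fat and HFCS, most of this came from 1 of its 3 kept probe sets, which differed from control by 1.71 on trans-fat/HFCS and by 1.63 on the combined diet (adjusted p 0.332 and 0.388 over all probe sets, limma). IFIT1 gave 2.83 and 3.10 on control, 2.93 and 3.15 on MSG, 3.54 and 3.31 on trans-fat/HFCS and 3.01 and 2.91 on the combined diet. Here only the trans-fat/HFCS arrays stood clear of control, by 0.46 (SE 0.18), and the combined diet lay below them by a log2 difference of -0.46 (adjusted p = 0.508). IFIT5, as the average of 3 kept probe sets, stayed between 3.47 and 3.79 on all 8 arrays. Its brightest, 7929075, read 5.94 and 5.47 on control, 6.60 and 6.20 on MSG, and between 5.28 and 5.69 elsewhere. On MSG it differed from control by 0.69 (adjusted p = 0.827 over all probe sets, limma), and the dimmer ones by -0.03 and -0.29.

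MX2, which in human cells encodes a GTPase that blocks retroviruses at the nucleus, was the member called when the trans-fat/HFCS arrays were set against control. Its log2 intensity was 3.47 and 3.87 on control, 4.36 and 4.45 on MSG, 4.68 and 4.97 on trans-fat/HFCS and 3.99 and 4.37 on the combined diet. The trans-fat/HFCS arrays were above all others and the control arrays below all others. The difference from control was 1.15 (SE 0.21), or 2.23-fold (adjusted p = 0.0276, limma). This was 1 of 34 members, beside 2.48% of all genes in that comparison (1.46% higher and 1.02% lower). MSG on chow differed from control by 0.74 (SE 0.21, adjusted p = 0.369), and the combined diet lay below the trans-fat/HFCS diet by a log2 difference of -0.64 (SE 0.21, adjusted p = 0.43).

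The MX2 call depends on how its 3 kept probe sets are combined, because the brighter pair ran in opposite directions. Probe set 8068705 read 5.29 and 5.68 on control, 6.71 and 7.00 on MSG, 5.14 and 5.23 on trans-fat/HFCS, and 2.69 and 5.31 on the combined diet. Probe set 8068704 read 3.10 and 3.76 on control, 4.02 and 4.11 on MSG, 5.85 and 6.71 on trans-fat/HFCS and 5.86 and 5.61 on the combined diet. Both were higher on MSG than on control, whereas with trans fat and HFCS the first was lower by a main effect of -1.58 and the second higher by 2.26. Taking the brightest probe set alone turned the difference of trans-fat/HFCS from control to -0.30. The call was also lost with no intensity filter (0.31, adjusted p = 0.169), and when any 1 control, MSG or trans-fat/HFCS array was left out (adjusted p up to 0.195). Without both trans-fat/HFCS arrays, the trans-fat/HFCS main effect on MX2 changed sign, from 0.46 to -0.22. MX1, the dynamin-like antiviral GTPase, gave 3.48 and 3.44 on control, 3.68 and 3.45 on MSG, 3.12 and 3.30 on trans-fat/HFCS and 2.82 and 3.27 on the combined diet, so that every array with trans fat and HFCS lay below every array without (-0.39, SE 0.14, unadjusted p = 0.0223, adjusted p = 0.13). Here too the probe sets disagreed: the brightest of the 6 kept for MX1 gave a main effect of 0.26, and the next brightest one of -1.09.

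**Figure D3:**
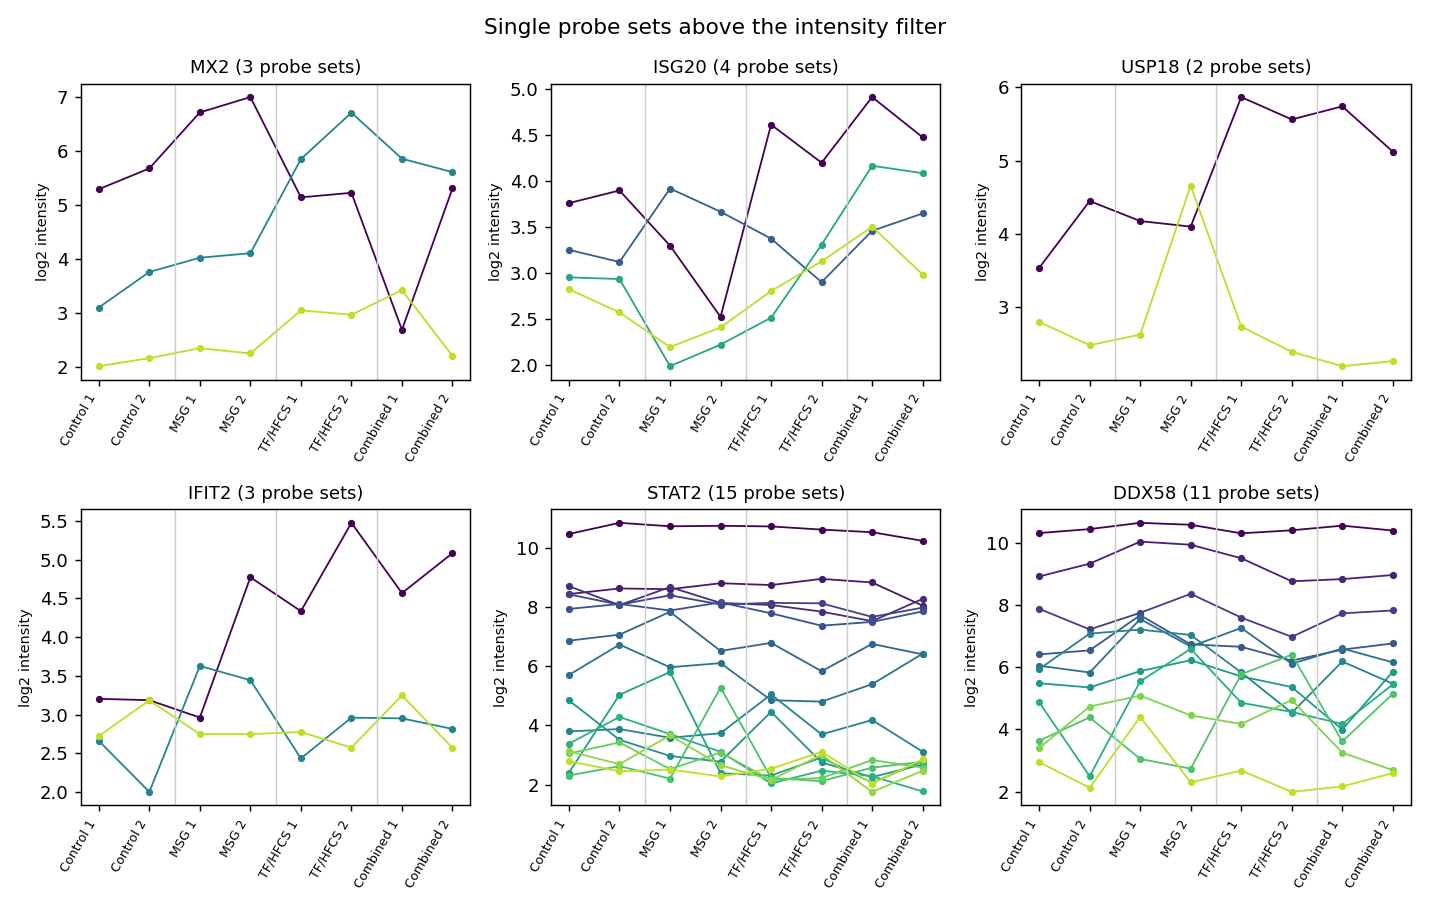
Log2 intensity (vertical axis) of single kept probe sets on the 8 arrays (horizontal axis; TF/HFCS stands for the trans-fat/HFCS diet), 1 line per probe set. For MX2, one line falls from 7.00 on the second MSG array to 5.14 on the first trans-fat/HFCS array while another climbs from 4.11 to 5.85.

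Among the transcription factors, STAT2 was lower with trans fat and HFCS. STAT2 is the subunit that gives this complex its activating domain. Its log2 intensity was 5.48 and 5.69 on control, 5.67 and 5.45 on MSG, 5.20 and 5.05 on trans-fat/HFCS and 4.94 and 5.08 on the combined diet. All 4 arrays with trans fat and HFCS were below all 4 without. The main effect was -0.50 (SE 0.12), a 1.42-fold lower value (adjusted p = 0.0412, limma). With ISG20 this made 2 of 34 members called for that main effect, where 7.66% of all genes were called (4.44% higher and 3.22% lower). The STAT2 call was lost when any 1 of the 8 arrays was left out (adjusted p 0.0571 to 0.142). It was lost as well with the brightest of its probe sets alone (-0.17, adjusted p = 0.501), and 12 of its 15 kept probe sets were lower.

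IRF1, a transcription factor induced mainly by interferon gamma, had log2 intensities of 3.66 and 3.93 on control, 3.61 and 2.85 on MSG, 2.96 and 2.82 on trans-fat/HFCS and 2.99 and 2.85 on the combined diet. Both control arrays were above the other 6, and the second MSG array sat with the trans-fat/HFCS and combined arrays. IRF1 differed from control by -0.91 on trans-fat/HFCS (SE 0.25, adjusted p = 0.0976) and by -0.88 on the combined diet (adjusted p = 0.132). Its trans-fat/HFCS main effect of -0.61 (SE 0.18) missed the threshold with all arrays (adjusted p = 0.0698) and passed it without the second MSG array (-0.80, adjusted p = 0.0297). IRF7, which amplifies type I interferon production, stayed between 3.37 and 3.76. IRF9, the DNA-binding partner of STAT2, ranged from 5.81 to 6.59, with the trans-fat/HFCS arrays at 5.94 and 6.59, and neither gene was called in any comparison.

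The 3 RIG-I-like receptors, which detect viral RNA in the cytosol, had their highest diet mean on MSG chow. DDX58, which encodes RIG-I, gave log2 intensities of 5.99 and 5.96 on control, 6.81 and 6.52 on MSG, 6.40 and 6.03 on trans-fat/HFCS and 5.79 and 6.12 on the combined diet. Both MSG arrays were above all 6 others. The difference from control was 0.69 (SE 0.20), or 1.61-fold, which did not pass the test (adjusted p = 0.385, limma), although 10 of its 11 kept probe sets were higher. IFIH1, which encodes MDA5, read 4.13 and 4.48 on control, 4.94 and 4.81 on MSG, 3.92 and 4.46 on trans-fat/HFCS, and 4.30 and 3.89 on the combined diet, a difference of 0.57 between MSG and control (SE 0.24, unadjusted p = 0.0406) with 8 of 10 probe sets higher. DHX58, which encodes the regulatory receptor LGP2, read 3.76 and 3.73 on control, 4.21 and 4.03 on MSG, 3.92 and 4.19 on trans-fat/HFCS and 3.74 and 3.79 on the combined diet. In DHX58 the MSG and trans-fat/HFCS arrays overlapped, and MSG differed from control by 0.38 (SE 0.17, unadjusted p = 0.0548), with 6 of 7 probe sets higher. The brightest of these, 8015514, was not highest on MSG: it differed from control by 0.61 on MSG and by 1.07 on trans-fat/HFCS. On the combined diet the 3 receptors differed from control by -0.02, -0.21 and 0.02. With the brightest probe set of each, these differences were 0.10, 0.39 and 1.08. Of the kept probe sets, 6 of 11, 4 of 10 and 3 of 7 were higher than control there. The interaction was negative for each, at -0.94 (SE 0.29), -0.66 (SE 0.34) and -0.67 (SE 0.24), and none passed the test.

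**Figure D4:**
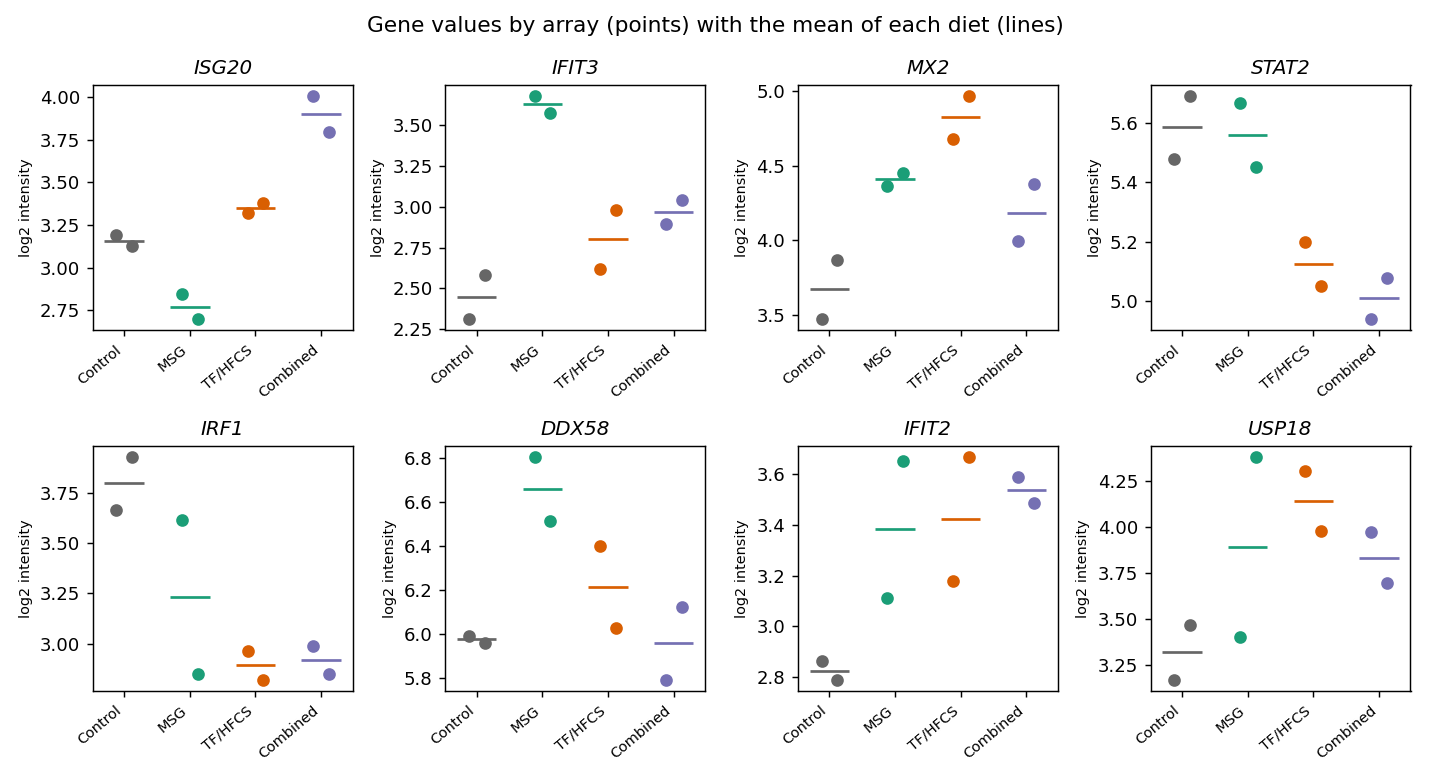
Log2 intensity (vertical axis) of single genes on each array (points) by diet (horizontal axis; TF/HFCS stands for the trans-fat/HFCS diet), with a line at the mean of each diet; n = 2 arrays per diet. The combined arrays of ISG20 (4.01 and 3.79) and the MSG arrays of IFIT3 (3.68 and 3.57) sit clear of all other arrays.

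The oligoadenylate synthetases make the second messenger that activates RNase L. OAS1 was the most variable of them: 5.25 and 4.60 on control, 5.22 and 6.03 on MSG, 4.99 and 5.97 on trans-fat/HFCS, and 5.06 on both combined arrays. The diets overlapped, and the difference of 0.71 between MSG and control had an SE of 0.37. OAS2 lay between 3.33 and 4.02 and was above control on every array of the other diets. The mean differences were 0.30 on MSG, 0.16 on trans-fat/HFCS and 0.35 on the combined diet (SE 0.20 each). The margin was small: the second combined array read 3.515 and the first control array 3.511. The brightest of its 5 kept probe sets was lower than control on these diets (-0.13, -0.49 and -0.06), while 3, 4 and 4 of the 5 were higher. OAS3 (3.81 to 4.42) was highest on the combined arrays, and OASL (3.43 to 4.11), which binds to RIG-I, on the MSG arrays, without a called difference.

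In the ISG15 system, USP18 gave the largest differences. USP18 removes ISG15 from proteins and also dampens signalling at the type I interferon receptor. It read 3.17 and 3.47 on control, 3.40 and 4.38 on MSG, 4.30 and 3.98 on trans-fat/HFCS and 3.97 and 3.70 on the combined diet. Both diets with trans fat and HFCS were above control, while the MSG arrays spanned nearly the whole range. The trans-fat/HFCS diet differed from control by 0.82 (SE 0.30, adjusted p = 0.192, limma). Of its 2 kept probe sets, 8071158 read 3.54 and 4.45 on control, 4.18 and 4.10 on MSG, 5.87 and 5.56 on trans-fat/HFCS, and 5.74 and 5.12 on the combined diet. This brighter probe set alone put the trans-fat/HFCS diet above control by 1.72. Adjusted over genes, each taken by its brightest probe set, the p was 0.0456, and adjusted over all kept probe sets it was 0.128. The other, 8071156, was high only on the second MSG array, at 4.66. ISG15 itself lay between 3.47 and 4.37 and was lower than control on both trans-fat/HFCS arrays, by a difference of -0.26 (SE 0.27). The ligases HERC5 (3.61 to 3.99) and HERC6 (4.00 to 4.99) and TRIM25 (4.23 to 5.10), which ubiquitinates RIG-I and conjugates ISG15, were not called in any comparison.

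None of the remaining members was called in any comparison. XAF1, a proapoptotic protein, read 2.47 and 2.64 on control, 3.07 and 2.75 on MSG, 2.12 and 2.28 on trans-fat/HFCS and 3.19 and 2.39 on the combined diet. Its arrays with MSG lay above those without on each base diet, by 0.47 on average (SE 0.18, adjusted p = 0.569) but the combined arrays were far apart. IFI44L read 3.36 and 3.42 on control, 3.72 and 3.60 on MSG, 3.64 and 3.46 on trans-fat/HFCS and 4.19 and 3.59 on the combined diet, with all 6 arrays of the modified diets above control and an MSG main effect of 0.31 (SE 0.15, adjusted p = 0.694). Its brightest probe set, 7902548, read 6.15 and 6.18 on control and 7.13 and 7.10 on MSG. On trans-fat/HFCS this probe set read 5.35 and 6.28, and on the combined diet 6.42 and 6.00, so both diets overlapped control. CMPK2, a mitochondrial nucleotide kinase, had its largest difference on MSG (-0.65, SE 0.30), and RSAD2, which encodes viperin, one of 0.25 on the combined diet (SE 0.29). RTP4 read 3.48 and 4.93 on the trans-fat/HFCS arrays, the widest spread within a diet among the members, and ranged from 3.70 to 4.40 elsewhere. For IFI6, IFI35, IFI44, PARP9, PARP14 and SAMD9 the differences from control on the 3 other diets lay between -0.34 (IFI35) and 0.37 (IFI6), both on trans-fat/HFCS.

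Set beside one another, the comparisons with control share the same 2 control arrays. On MSG chow, 25 of 34 members (73.5%) were above control, against 50.6% of all genes, with a median difference of 0.127 (all genes 0.004). None was called by limma, where 0.296% of all genes were; 7 (20.6%) had an unadjusted p under 0.05, against 7.64% of all genes. In 12 members (35.3%) both MSG arrays exceeded both control arrays and in 3 (8.82%) both were below, where 19.8% and 19.7% of all genes did so. The 12 included the 3 RIG-I-like receptors, IFIT2, IFIT3, MX2, OAS2 and OASL. The 3 below were ISG20, IRF1 and CMPK2.

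On the trans-fat/HFCS diet, 20 of 34 members (58.8%) were above control, against 51.5% of all genes, and the median difference was 0.047 (all genes 0.011). This median was -0.07 without the second trans-fat/HFCS array and 0.15 without the first. With MX2 included, 6 members (17.6%) had an unadjusted p under 0.05, against 18.3% of all genes. The arrays stood clear of control upward in 12 members (35.3%, all genes 26.7%) and downward in 6 (17.6%, all genes 24.9%). On the combined diet, 17 members were above control and 17 below, with a median of 0.007 (all genes 0.017). None was called, where 1.16% of all genes were, and 7 (20.6%) had an unadjusted p under 0.05, against 16.5%. The combined arrays were clear of control upward in 10 members (29.4%, all genes 25.5%) and downward in 4 (11.8%, all genes 23.1%). IRF1 was below control on every array of the 3 diets, 1 member (2.94%) beside 5.66% of all genes. IFI44L, IFIT2, IFIT3, MX2 and OAS2 were above it on every array, 5 members (14.7%) beside 6.01% of all genes. The brightest probe sets of IFI44L, IFIT2, MX2 and OAS2, taken alone, were not above control on every array.

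The comparison of MSG on the trans-fat/HFCS base shares no array with that on chow. Here 16 of 34 members (47.1%) were above the trans-fat/HFCS diet, the median was -0.039 (all genes 0), and none was called, where 0.179% of all genes were. The sign of this median was not stable: it was 0.19 with the filter at the 75th percentile, 0.12 with the brightest probe set and 0.08 without the second trans-fat/HFCS array. At an unadjusted p under 0.05 there were 4 (11.8%), against 8.98% of all genes. The combined arrays were clear of the trans-fat/HFCS arrays upward in 5 members (14.7%, all genes 18.7%), among them ISG20 and XAF1. They were clear downward in 6 (17.6%, all genes 18.4%), among them MX2, IFIT1, DHX58 and USP18. The difference between the 2 effects of MSG was negative in 22 of 34 members, leaving 35.3% positive against 49.7% of all genes, with a median of -0.225 (all genes -0.003). No member passed the interaction test, which called 0.151% of all genes, and 5 (14.7%) had an unadjusted p under 0.05, against 9.07%. These were MX2 (-1.38, SE 0.30, adjusted p = 0.206), ISG20 (0.94), IFIT3 (-1.01), DDX58 (-0.94) and DHX58 (-0.67).

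**Figure D5:**
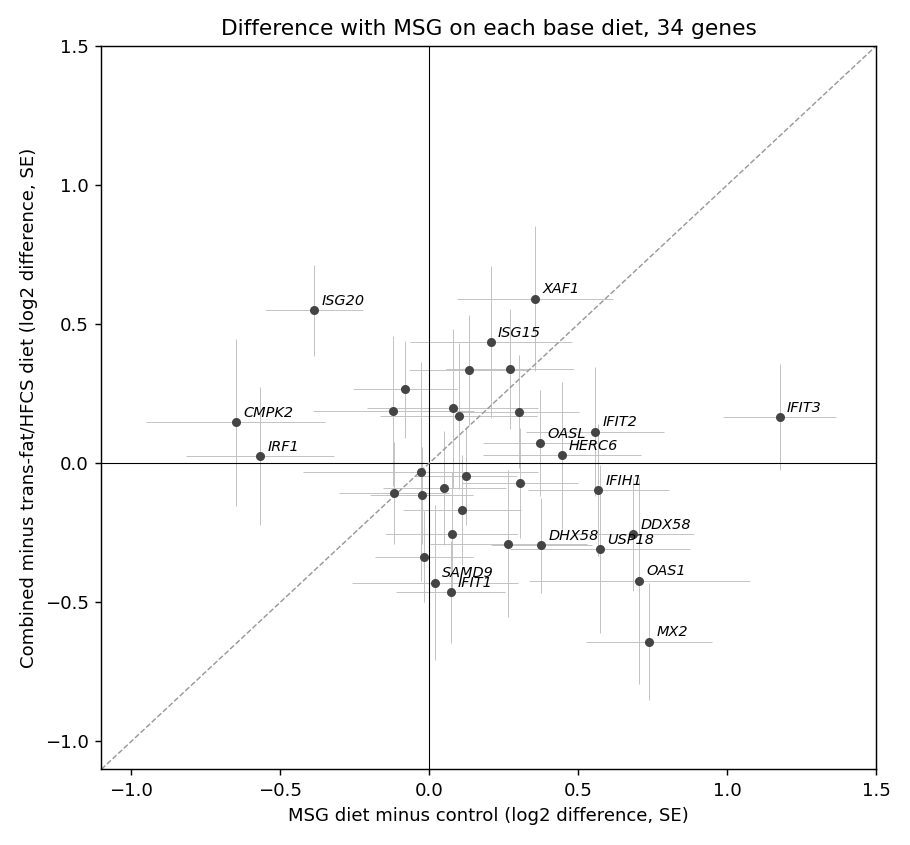
Each point is one of the 34 genes: the log2 difference of the MSG diet from control (horizontal axis) against that of the combined diet from the trans-fat/HFCS diet (vertical axis), with bars of 1 SE. IFIT3 lies farthest right (1.18), MX2 right and low (0.74 and -0.64) and ISG20 left and high (-0.39 and 0.55).

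Averaged over both base diets, MSG moved none of the members past the threshold, where 0.329% of all genes were called, and 2 (5.88%) had an unadjusted p under 0.05, against 7.91% of all genes. IFIT3 was first (0.67, SE 0.13, adjusted p = 0.115) and XAF1 second. For trans fat and HFCS, averaged over both MSG levels, 14 members were higher (41.2%, all genes 52.3%) and the median was -0.047 (all genes 0.016), or 0.03 without the first trans-fat/HFCS array. Beside ISG20 and STAT2, MX1, MX2, IFIT2, IRF1 and IFIH1 had an unadjusted p under 0.05, which made 7 (20.6%) against 24.5% of all genes.

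Single probe sets of the members were called in no case out of 162 by limma's F test over the diets, where 1.02% of 111624 probe sets were. An unadjusted p under 0.05 was found for 22 of them (13.6%), the same share as among all probe sets (13.6%). The smallest adjusted p, 0.0524, belonged to MX2 probe set 8068704.

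Several members lie side by side in the genome, and 6 adjacent pairs were found in the cat annotation. For RSAD2 and CMPK2 the difference between MSG and control was 0.08 and -0.65, for HERC5 and HERC6 -0.12 and 0.44, and for IFI44L and IFI44 0.27 and -0.02. IFIT2 and IFIT3 were both above control on each of the 3 diets, with 0.56 and 1.18 on MSG, 0.60 and 0.35 on trans-fat/HFCS and 0.71 and 0.52 on the combined diet. In the OAS cluster, OAS1, OAS3 and OAS2 differed from control by 0.71, 0.13 and 0.30 on MSG, by 0.56, -0.01 and 0.16 on trans-fat/HFCS and by 0.14, 0.33 and 0.35 on the combined diet. The differences within pairs were not tested.

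Of the genes upstream of the members, 22 of 26 interferon ligands, receptors and signalling genes were measured. None was called over the 4 diets, and 1 was called on trans-fat/HFCS against control (2.48% of all genes) and for the main effect (7.66% of all genes). SOCS1, the feedback inhibitor of JAK kinases, read 3.05 and 2.86 on control, 3.07 and 3.18 on MSG, 4.08 and 3.72 on trans-fat/HFCS and 3.48 and 3.73 on the combined diet. It was higher on trans-fat/HFCS than on control by 0.94 (SE 0.19, adjusted p = 0.0392) and in the main effect by 0.71 (SE 0.13, adjusted p = 0.0179, both limma). The arrays with trans fat and HFCS did not overlap the others; the gene had 1 kept probe set, and the main-effect call ended without both trans-fat/HFCS arrays (0.48, adjusted p = 0.229). The call against control ended without any 1 control, MSG or trans-fat/HFCS array (adjusted p up to 0.221), and that on the main effect without either control array, the first MSG or the first trans-fat/HFCS array (up to 0.073). The median difference of this list was -0.212 on MSG, -0.136 on trans-fat/HFCS and -0.148 on the combined diet.

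Of 24 nucleic acid sensors and adaptors outside the 34 genes, 21 were measured. RNF125 is a ubiquitin ligase that acts on RIG-I, MDA5 and the adaptor MAVS, and TRAF6 is a ubiquitin ligase of innate immune signalling. Both differed among the diets (adjusted p = 0.0215 and 0.0339, limma's F test), 2 of 21 beside 3.2% of all genes. Neither F-test call was kept in every fit that left out 1 array. RNF125 was higher on trans-fat/HFCS than on control by 1.09 (SE 0.18, adjusted p = 0.0178), a call that ended without any 1 control or trans-fat/HFCS array (adjusted p up to 0.148), and its interaction was the one called in these lists. TRAF6 read 4.86 and 5.07 on control, 5.59 and 5.67 on MSG, 4.07 and 4.37 on trans-fat/HFCS and 4.19 and 4.78 on the combined diet, with a trans-fat/HFCS main effect of -0.94 (SE 0.16, adjusted p = 0.0113). It lost that call without the second control array (adjusted p = 0.051) and without both trans-fat/HFCS arrays (adjusted p = 0.0571). MAVS and the endosomal RNA receptor TLR3 were higher by 0.48 (adjusted p = 0.0442) and 0.49 (adjusted p = 0.0457), and both calls ended when any 1 array was left out.

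A list of 65 other interferon-induced genes had 60 measured, of which 2 differed among the diets, beside 3.2% of all genes: CXCL11 (adjusted p = 0.0183) and GBP2 (adjusted p = 0.0351). These 2 calls, by limma's F test, also did not hold in every fit that left out 1 array. CXCL11, a chemokine for T cells, read 5.19 and 5.05 on control, 4.97 and 5.03 on MSG, 3.79 and 4.15 on trans-fat/HFCS and 5.14 and 5.27 on the combined diet. Only the trans-fat/HFCS arrays were low, with a difference of -1.15 from control (SE 0.18, adjusted p = 0.0159), and the combined diet exceeded them by 1.24 (SE 0.18, adjusted p = 0.0429). The latter call was lost without any 1 of the 8 arrays (adjusted p 0.0825 to 0.253), and that against control without either control array or the first trans-fat/HFCS array (up to 0.129). With its brighter probe set alone the difference from control was -0.51 (adjusted p = 0.63). GBP2, a guanylate-binding protein induced by interferon gamma, read 2.38 and 2.33 on control, 2.87 and 3.13 on MSG, 3.63 and 3.90 on trans-fat/HFCS and 3.51 and 2.98 on the combined diet. It was higher on trans-fat/HFCS than on control by 1.41 (SE 0.22, adjusted p = 0.0152), with no overlap of these 2 diets, and the call ended without any 1 of their 4 arrays (adjusted p up to 0.107). It had 4 kept probe sets, of which the brightest differed by 4.37, and with their median the difference was 0.60 (adjusted p = 0.39). IFITM2 had a main effect of 0.98 (SE 0.23, adjusted p = 0.0335), which was lost without both trans-fat/HFCS arrays (adjusted p = 0.141) and in 6 of the 8 fits that left out 1 array (up to 0.119). The list's median difference was 0.044 on MSG, -0.037 on trans-fat/HFCS and -0.037 on the combined diet.

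Markers of immune cells in liver are given beside these results, and their part in them was not tested. Of 18 macrophage and Kupffer cell markers 16 were measured, with summed intensities of 422 to 428 on control, 391 to 411 on MSG, 425 to 458 on trans-fat/HFCS and 458 to 463 on the combined diet. CD68 was higher on trans-fat/HFCS than on control by 1.31 (SE 0.20, adjusted p = 0.0152), which turned to -0.32 with its brightest probe set and was not called without either control array or the second trans-fat/HFCS array (adjusted p up to 0.12). In that comparison CD68 was the 1 marker called of these 16, beside 2.48% of all genes. Of the 16, 10 were higher than on control and 6 lower, with a median difference of 0.154. Of 14 neutrophil markers 11 were measured, with sums of 131 to 150 on control, 135 to 141 on MSG, 117 to 122 on trans-fat/HFCS and 107 to 136 on the combined diet. S100A12 was lower on trans-fat/HFCS than on control, with a difference of -2.76 (SE 0.37, adjusted p = 0.00896). It was also lower on the combined diet (-2.17, adjusted p = 0.0342, both limma). Neither call was kept in every fit that left out 1 array (differences of -3.01 to -2.51 and of -2.44 to -1.89). On trans-fat/HFCS, 1 of the 11 markers was called, beside 2.48% of all genes. There, 6 of the 11 were higher than on control and the list's median difference was 0.016. The 19 measured lymphocyte markers summed to 268 to 274 on control, 278 to 308 on MSG, 285 to 294 on trans-fat/HFCS and 280 to 303 on the combined diet. The 12 dendritic cell markers summed to 121 to 124, 116 to 133, 121 to 136 and 123 on the same diets. None of the lymphocyte or dendritic cell markers was called.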

How the data were processed

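Liver RNA (250 ng) was hybridised to 8 Affymetrix HuGene-1_0-st-v1 arrays, each labelled as a different cat; pooling is not stated. The deposited values are linear intensities of single probe sets that the authors had normalized: GCRMA, Partek and the build hg19 are named, without versions, roles or order, per the submitters' processing notes. Intensities began between 2.22 and 2.3 on each array, so log2 was taken. Of 257101 probe sets, the 128550 above the median mean were kept, and those with 1 gene (111624) were averaged per gene, giving 17910 genes. Human probes read cat RNA, and a sequence difference between cats can alter a value with no change in expression; this was not tested. The number of arrays limits the precision. A model of 4 diet means was fitted with limma 3.58.1 in R 4.3.3, with moderated F tests, contrasts and Benjamini-Hochberg adjustment over all genes (threshold 0.05), after the code was tested on simulated data. The residual degrees of freedom were 4. Values on each array are given for each member called in any comparison and for the 4 of smallest p in each, and for the RIG-I-like receptors, MX1 and OAS1, which were chosen after their values were seen. The members and gene lists were chosen with earlier results of these data known. Alternatives covered the filter, summary, normalization, prior, replicate block and leaving out arrays. Probe set IDs are those of the platform, and gene symbols its annotation.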

Additional observations from a re-analysis of the deposited data

Results flagged for a closer look

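The effect of MSG on RNF125, the ubiquitin ligase acting on RIG-I, MDA5 and MAVS, differed between the base diets by the interaction test. Its log2 intensity was 5.10 and 5.27 on control, 6.17 and 6.27 on MSG, 6.39 and 6.15 on trans-fat/HFCS and 5.35 and 5.60 on the combined diet. MSG went with a difference of 1.04 on chow (SE 0.18, adjusted p = 0.0689) and of -0.80 on the trans-fat/HFCS base (SE 0.18, adjusted p = 0.225, limma). The interaction was -1.84 (SE 0.25, adjusted p = 0.0372), and each of its 5 kept probe sets gave a negative value, from -3.39 to -0.52. The call was lost without any 1 array (-1.97 to -1.71, adjusted p 0.0648 to 0.22), with the filter at the 75th percentile (adjusted p = 0.0866) and with the replicate block (adjusted p = 0.0891). It was lost with the brightest probe set (-1.19, adjusted p = 0.308) and with the median of probe sets (-1.64, adjusted p = 0.542). The cause was not tested.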

How the results depend on the processing

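The named genes that were refitted kept their direction in every alternative run, with 7 exceptions. With the brightest probe set, MX1 turned to 0.26 in the trans-fat/HFCS main effect, MX2 turned to -0.30 on trans-fat/HFCS against control and to -1.58 in the trans-fat/HFCS main effect, STAT2 to 0.01 in the first and CD68 to -0.32 in both. Without both trans-fat/HFCS arrays, an alternative chosen after seeing the data, MX2 turned to -0.22 in the main effect. The cause was not tested. Counts of members called moved as follows. Over the 4 diets, the 2 calls became 0 with no filter, the brightest probe set, the median of probe sets and the replicate block. On trans-fat/HFCS against control, the 1 call, on MX2, became 0 with no filter and with the median. The call on MX2 was not kept with the brightest probe set either, where its difference turned to -0.30 and USP18 passed instead. For the trans-fat/HFCS main effect, the 2 calls became 1 with no filter, with the block and without both trans-fat/HFCS arrays, and 0 with the median. One member probe set was called (1) with the 75th-percentile filter and with the trend and robust prior. The members' median log2 difference was 0.23 (75th percentile) and 0.20 (brightest) on MSG, 0.09, 0.14 and 0.11 (75th percentile, brightest, median) on the combined diet, and 0.19, 0.12 and -0.13 under the same 3 for the combined against the trans-fat/HFCS diet. For the main effect it was -0.16 without both trans-fat/HFCS arrays, and for the interaction -0.12 (no filter), -0.15 (brightest) and -0.34 (median). Over all genes, the F test called 1000 (75th percentile), 1217 (brightest), 189 (median), 888 (trend and robust prior), 360 (block) and 217 (without both trans-fat/HFCS arrays). In the same order, MSG against control called 95, 102, 15, 81 and 34, the interaction 14, 56, 5, 47 and 11, and trans-fat/HFCS against control, without the block, 834, 1120, 180 and 684. The combined diet against control called 513, 730, 44, 413 and 96, and 25 in a fit of those 2 diets alone; against trans-fat/HFCS it called 11, 17, 14, 53 and 14, and 7. The trans-fat/HFCS main effect called 2182 (brightest), 595 (median) and 233 (without both trans-fat/HFCS arrays), and the MSG main effect 106, 13 and 92 (brightest, median, trend). Leaving out 1 array at a time gave 170 to 536 genes over the diets with 0 to 0 members, 13 to 55 for MSG with a median of 0.13 to 0.23, 62 to 528 for trans-fat/HFCS with 0 to 1 members and a median of -0.07 to 0.15, and 0 to 145 for the combined diet. It gave 9 to 25 for combined against trans-fat/HFCS (median -0.11 to 0.08), 443 to 1234 for the trans-fat/HFCS main effect (0 to 2 members, median -0.11 to 0.03), 12 to 68 for the MSG main effect, 5 to 20 for the interaction (median -0.32 to -0.15) and 0 to 1 member probe sets. Over all genes, the replicate numbers showed no pairing of the arrays: deviations of same-numbered arrays correlated between -0.056 and 0.043. A shared effect limited to some genes cannot be seen this way.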
